A study of Mus musculus with 4 samples.

Results

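The haematopoietic transcription factors described here are 10 genes, Runx1, Gata1, Gata2, Ikzf1, Myb, Tal1, Lmo2, Fli1, Gfi1 and Mecom, chosen by name, and every probe whose symbol in the deposited table is one of them was taken. They are 10 of the 24561 gene symbols on the array and have 15 of its 55681 probes. The expression of mRNA was measured in 4 lines of L1210, a mouse lymphocytic leukemia cell line (strain DBA subline 212), on an Agilent 1-colour array with 1 array per line. All 4 lines were infected with lentivirus, sorted as GFP+ cells and kept as stable lines. L1210-Fbxw11a carried the full-length variant of Fbxw11, an F-box protein that selects substrates for ubiquitination, L1210-Fbxw11c and L1210-Fbxw11d carried shorter splice variants of it, and L1210-control carried the control. The lines are called Fbxw11a, Fbxw11c, Fbxw11d and the control from here on. The vector of the control line and the number of founder cells of each line are not given in the sources used here. With 1 array per line there is no spread between samples and no test could be made, so every difference below is between single arrays, and fewer cells that express a gene cannot be told apart from less RNA per cell.

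Blood cell formation is directed by a small network of DNA-binding proteins that act in shared complexes. Runx1, with its partner Cbfb, Gata2, Tal1, Lmo2 and Fli1 act in stem and progenitor cells, Gata1 drives erythroid and megakaryocytic genes, Ikzf1 (Ikaros) and Myb act in lymphoid and progenitor cells, Gfi1 is a zinc finger repressor, and Mecom, also known as Evi1, is a zinc finger factor of stem cells that is activated in some leukemias. These roles are background and not results of these arrays.

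Each of the 15 probes was a 60-base oligonucleotide printed as 1 spot, and no spot of them was flagged as an outlier. The first 30 bases are shown for the probes on which the results turn, 5′ to 3′ as the deposited files list them, with mm9 coordinates of the whole probe. The 3 probes of Mecom lie far apart in the gene, which is why all of them are shown.
Mecom, chr3:29876185-29876244, minus strand: cccgcttgaagctttgaaagaaaaatactt
Mecom, chr3:30135491-30135550, minus strand: gttttgtccctggacacatccttgggaagg
Mecom, chr3:30445665-30445724, minus strand: ataaaatgtgcaggtgtgacggacgacttt
Gfi1, chr5:108145719-108145778, minus strand: gtgagggttgtagacgttcctaaatcttct
Gata1, chrX:7536392-7536451, minus strand: aataaaaccacctggagacatgcgctggta
Gata2, chr6:88156362-88156421, plus strand: aactgcataagcttaacccgctgatgagtg
Runx1, chr16:92605785-92605844, minus strand: caggagggcccttggaggccaccaggaaga
Runx1, chr16:92604413-92604472, minus strand: tgtgcatcgtgtcactgtaaatgtaatggt
The GC content of the 15 probes ran from 35% to 58.3%.

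Signals are given as scaled signals, the background-corrected intensity multiplied so that the 75th percentile of every array equals that of the control. A pair of lines was compared at a probe where either array had it well above background, and the probe was called at a difference of 2-fold or more. Where 1 side was not well above background, its level has only a bound, so the difference was taken against the higher of its own signal and the lowest signal well above background on that array, and is written as "at least". These lowest signals were 18.1 in the control, 14.4 in Fbxw11a, 14.9 in Fbxw11c and 10.4 in Fbxw11d on the scaled signal. The error beside a signal is the scanner software's own error for that spot, and the error beside a log2 difference is the SD between repeated spots of probes at the same level on the same arrays. Neither holds any spread between cultures.

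Of the 10 genes, Runx1 and Gata2 were well above background in all 4 lines. Gata1 and Gfi1 were well above background in the 3 lines with an Fbxw11 variant and not in the control. For Gata1 in Fbxw11d the signal was 16.8, under the lowest signal well above background in the control (18.1) but over that of Fbxw11d (10.4). Mecom was well above background in the control and Fbxw11a through 1 probe, and in Fbxw11d only through another that stayed near the limit. Ikzf1, Myb, Tal1, Lmo2 and Fli1 were not well above background in any line. By probe, 3 of 15 passed this limit on every array and 7 of 15 on at least 1.

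**Figure D1:**
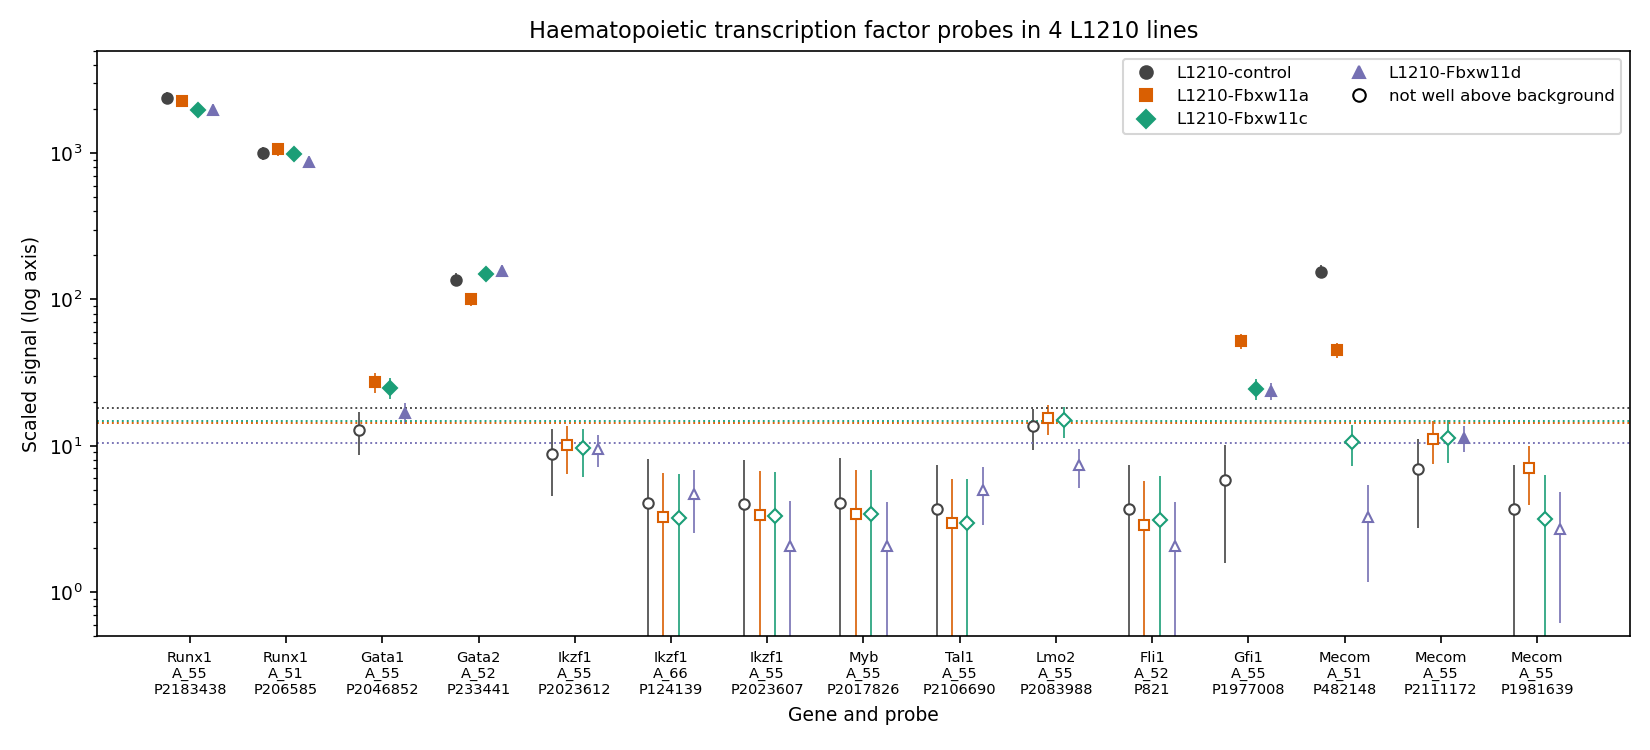
Scaled signal (log axis) of the 15 probes in the 4 lines, 1 array each, with bars for the scanner software's error (bars that reach the lower edge go on below it) and dotted lines for the lowest signal well above background on each array. Filled points are well above background: Runx1 and Gata2 are filled in all 4 lines, Gfi1 and Gata1 in the 3 lines with a variant, and Mecom goes from 155 in the control to 45.3 in Fbxw11a.

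Mecom gave the widest difference among the 10 genes. Its probe at chr3:29876185-29876244 had a scaled signal of 155 ± 15.9 in the control, 45.3 ± 5.34 in Fbxw11a, 10.6 ± 3.28 in Fbxw11c and 3.28 ± 2.10 in Fbxw11d. The latter 2 signals were not well above background. All 3 lines with a variant lay below the control, and Fbxw11a lay between the control and the other two. The signal was 3.42-fold lower in Fbxw11a (log2 difference -1.77 ± 0.28), at least 10.4-fold lower in Fbxw11c and at least 14.9-fold lower in Fbxw11d. Between the variants, Fbxw11a was at least 3.05-fold above Fbxw11c and at least 4.36-fold above Fbxw11d. Fbxw11c and Fbxw11d could not be compared, since both were dim.

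The other Mecom probes did not show this difference. The probe at chr3:30135491-30135550 had scaled signals of 6.95 in the control, 11.2 in Fbxw11a, 11.3 in Fbxw11c and 11.4 in Fbxw11d, and only the last was well above background. The probe at chr3:30445665-30445724 had 3.67, 6.99, 3.17 and 2.72 in the same order, none well above background. The difference in Mecom therefore rests on 1 of 3 probes and on 1 spot per array. The mean of the 3 probes, which takes in the dim ones, gave log2 differences from the control of -0.05 in Fbxw11a, not called, -1.13 in Fbxw11c and -1.76 in Fbxw11d. With normexp background correction, which adds an offset of 50 and so draws low signals together, the log2 difference of Fbxw11a was -0.98 and no longer called, while those of Fbxw11c and Fbxw11d were -1.57 and -2.26. Between Fbxw11a and Fbxw11c the bound was then 0.60 and not called.

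Gfi1 was the 1 member called higher in a line with a variant than in the control. Its single probe had a scaled signal of 5.82 ± 4.24 in the control, 52.2 ± 6.18 in Fbxw11a, 24.5 ± 4.10 in Fbxw11c and 23.5 ± 3.14 in Fbxw11d. The control alone was not well above background, and Fbxw11a was the highest of the 4. The signal was at least 2.89-fold higher than in the control in Fbxw11a, at least 1.36-fold higher in Fbxw11c and at least 1.30-fold higher in Fbxw11d, so only the first passed the threshold. Fbxw11a was 2.13-fold above Fbxw11c (log2 difference 1.09 ± 0.58) and 2.22-fold above Fbxw11d (1.15 ± 0.74). The log2 difference from Fbxw11d was 0.92 with quantile normalization, 0.94 with centring on the median and 0.91 with the authors' normalized values, all under the threshold. With normexp no Gfi1 difference was called, at 0.51 as the bound for Fbxw11a against the control, 0.43 against Fbxw11c and 0.70 against Fbxw11d.

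Gata1, the erythroid and megakaryocytic GATA factor, had a scaled signal of 12.8 ± 4.10 in the control, 27.2 ± 4.12 in Fbxw11a, 24.9 ± 4.16 in Fbxw11c and 16.8 ± 2.67 in Fbxw11d. The signals lay close to the lowest level that could be told from background. They were at least 1.5-fold higher in Fbxw11a and at least 1.38-fold higher in Fbxw11c than in the control, no fold could be given for Fbxw11d, and none passed the threshold.

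Runx1 differed by less than 2-fold between the lines. Its probe at chr16:92605785-92605844 had a scaled signal of 2385 ± 239 in the control, 2280 ± 228 in Fbxw11a, 1973 ± 197 in Fbxw11c and 1976 ± 198 in Fbxw11d. The log2 differences from the control were -0.06 ± 0.09, -0.27 ± 0.09 and -0.27 ± 0.11 in that order. Centring the arrays on the median, which adds 0.22 to every log2 difference of Fbxw11d from the control, brought the last to -0.05. The second probe, at chr16:92604413-92604472, had 994 ± 99.5, 1062 ± 106, 993 ± 99.3 and 874 ± 87.5. Its log2 differences were 0.095 ± 0.09 in Fbxw11a, 0.00 ± 0.09 in Fbxw11c and -0.19 ± 0.12 in Fbxw11d, and that of Fbxw11d had the opposite sign, at 0.03, with that centring, and was 0.001 with normexp. The 2 probes thus differed in Fbxw11c, where the first was lower by more than its spot SD and the second was level with the control.

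Gata2, which acts in progenitor and mast cells, had a scaled signal of 137 ± 14.2 in the control, 100.4 ± 10.5 in Fbxw11a, 149.6 ± 15.3 in Fbxw11c and 157 ± 15.8 in Fbxw11d. Fbxw11a was the lowest of the 4. The log2 differences from the control were -0.45 ± 0.20, 0.13 ± 0.18 and 0.20 ± 0.19, and the last was -0.02 with normexp and 0.42 with the arrays centred on the median. Fbxw11a lay 1.49-fold below Fbxw11c (log2 difference -0.58 ± 0.20) and 1.56-fold below Fbxw11d (-0.65 ± 0.21), under the 2-fold threshold. With normexp these log2 differences were -0.31 and -0.28. Among the 16248 genes well above background in all 4 lines, those whose 3 log2 differences from the control were most like those of Gata2 were LOC102639363, Kcnk12 and Cacna2d1, with a greatest departure of 0.02, 0.07 and 0.07. With 3 differences per gene, such likeness is a description only.

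**Figure D2:**
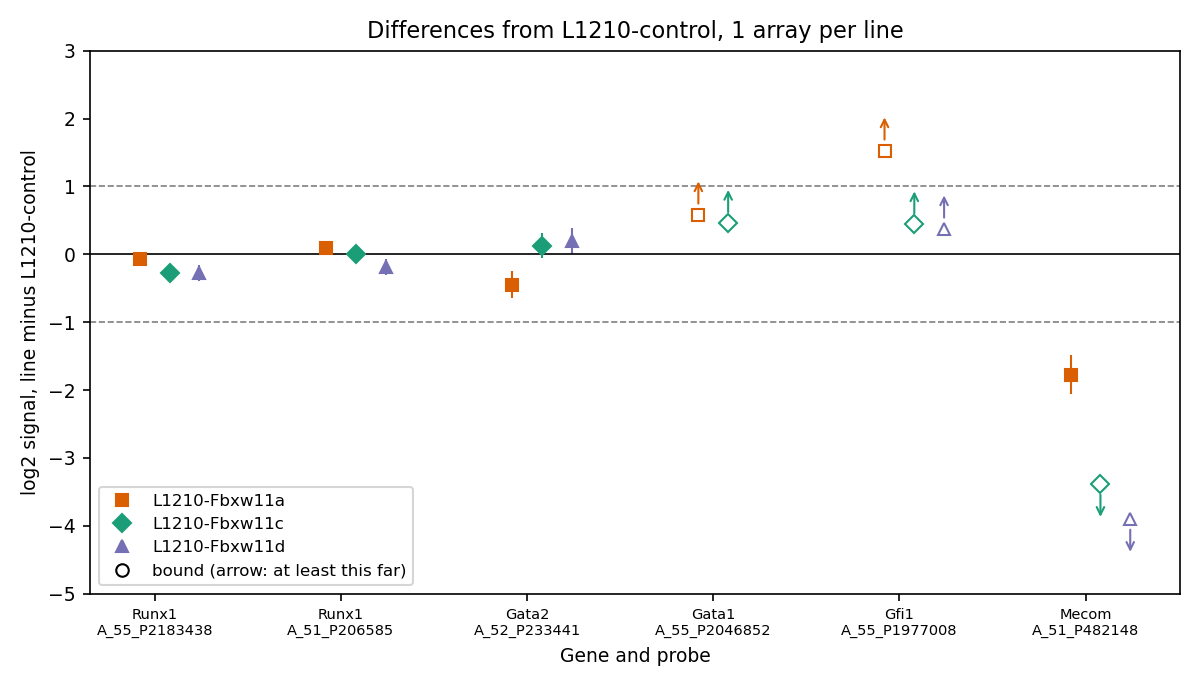
Log2 difference from the control for the 6 probes with a value in at least 1 line, with bars for the SD between repeated spots and dashed lines at the 2-fold threshold. Open points with arrows are bounds. The Mecom points lie at -1.77 and below, the Gfi1 point of Fbxw11a lies above the threshold, and the Runx1, Gata2 and Gata1 points lie inside it.

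The 5 genes not well above background in any line give no comparison. Lmo2, a bridging protein of the Tal1 complex, came nearest to the limit, with scaled signals of 13.6, 15.4, 14.9 and 7.35 in the control, Fbxw11a, Fbxw11c and Fbxw11d. In Fbxw11a and Fbxw11c these lay just over the lowest signal of any probe well above background, but its own spot did not pass there. The 3 Ikzf1 probes ran from 2.07 to 10.1 over the 4 lines, Myb from 2.07 to 4.08, Tal1 from 2.97 to 5.01 and Fli1 from 2.07 to 3.70. The value of 2.07 is the scaled floor of the Fbxw11d array, which 9748 of its gene spots share, so these values have no order. Such a signal bounds the RNA that these probes can see and does not show that the gene is silent.

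Counted by probe, 2 of the 6 compared member probes were called in Fbxw11a against the control (Gfi1 and Mecom), where 5.13% of all compared probes were called. In Fbxw11c it was 1 of 6 (Mecom; 4.47% of all) and in Fbxw11d 1 of 7 (Mecom; 6.97% of all). Between variants, 2 of 6 were called for Fbxw11a against Fbxw11c (4.92% of all), 2 of 7 for Fbxw11a against Fbxw11d (7.34% of all) and 0 of 6 for Fbxw11c against Fbxw11d (5.26% of all). The comparisons share arrays, and the same 2 probes, those of Gfi1 and Mecom, carry every call.

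Genes that lie beside Mecom and Gfi1 were looked at after the values of these 2 genes had been seen, taking the 3 nearest genes with a probe on each side in mm9. Of the 6 neighbours of Mecom, 4 could be compared with the control in Fbxw11a, 3 in Fbxw11c and 3 in Fbxw11d, the rest being dim, and none of those compared was called. Mynn, 641 kb away, had scaled signals of 628, 686, 746 and 817 in the control, Fbxw11a, Fbxw11c and Fbxw11d, and Egfem1, 287 kb away on the other side, had 19.8, 26.8, 16.2 and 34.0. Neither followed the order seen for Mecom. Of the 6 neighbours of Gfi1, 5 were well above background in all 4 lines and none of these was called, and Evi5, 28.1 kb away, had 2439, 2618, 2624 and 2433.

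**Figure D3:**
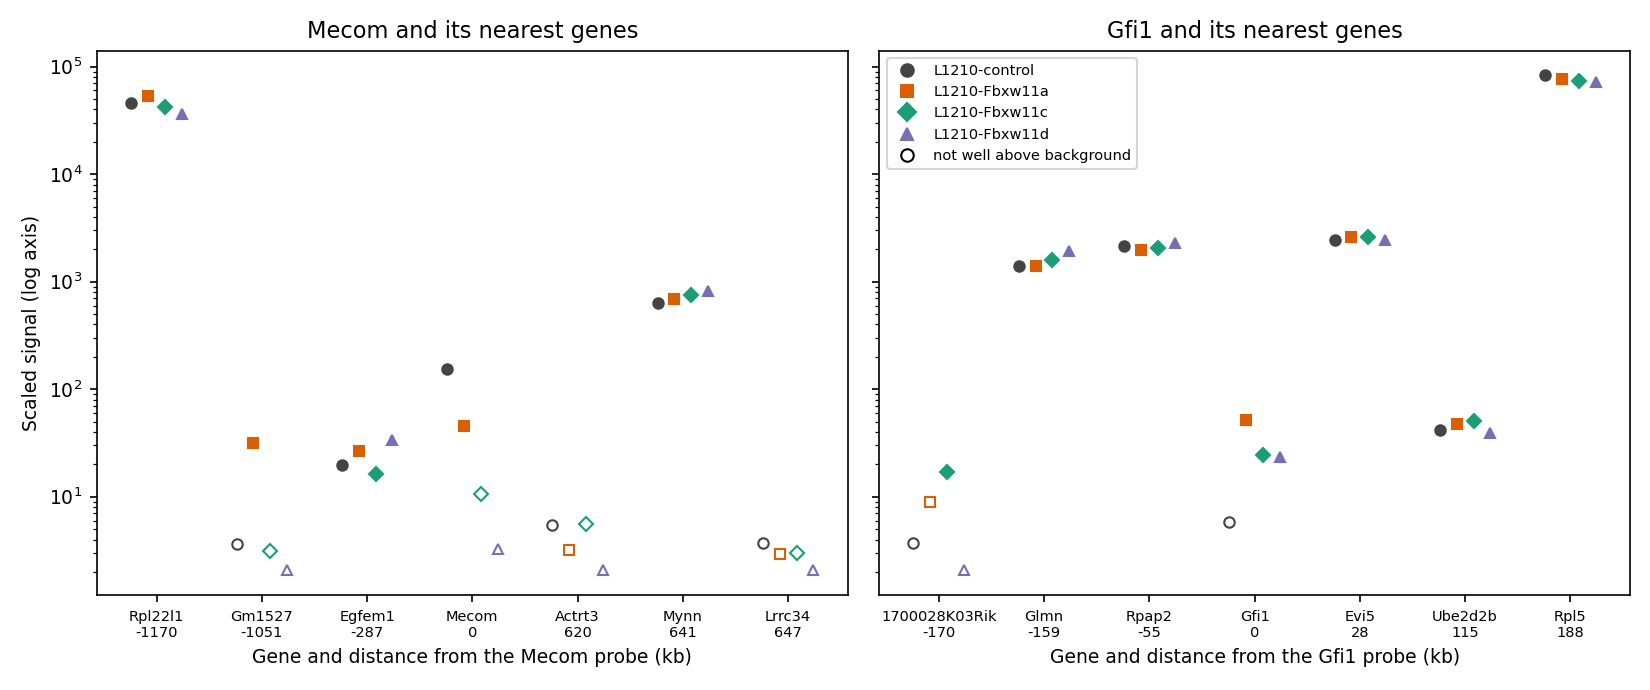
Scaled signal (log axis) of Mecom and Gfi1 and of the 3 nearest genes with a probe on each side, with the distance from the probe in kb under each name. Open points are not well above background. Mecom goes from 155 in the control to 3.28 in Fbxw11d while Mynn goes from 628 to 817, and Evi5 stays between 2433 and 2624 beside Gfi1.

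The mRNAs of the proteins that work with these factors were mostly well above background and within 2-fold of the control. Of 20 partners and cofactors, 19 were well above background in all 4 lines. None was called higher in any line, where 2.43%, 1.61% and 1.05% of all genes were called higher in Fbxw11a, Fbxw11c and Fbxw11d, and none was called lower in Fbxw11a (2.02% of all genes) or Fbxw11c (2.27%). In Fbxw11d 1 was called lower, Rcor1, a corepressor that joins Gfi1 to Kdm1a, where 4.7% of all genes were lower. Rcor1 had scaled signals of 23.3 in the control, 4.74 in Fbxw11a, 4.43 in Fbxw11c and 2.14 in Fbxw11d, at least 2.24-fold lower in the last, and its second probe was dim in all lines. The brightest were Ctbp1, Chd4, Cbfb, the partner of Runx1, and Hdac1, and Cbfb had log2 differences of 0.12, 0.33 and 0.12. The median log2 difference of the list was 0.00 in Fbxw11a, 0.11 in Fbxw11c and 0.09 in Fbxw11d, beside 0.00, 0.02 and 0.04 over all genes.

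Among 25 paralogues and other haematopoietic regulators, 16 were well above background in all 4 lines and 7 in none. In Fbxw11a 2 of the 18 compared were called higher, Erg and Tal2, where 2.43% of all compared genes were. In Fbxw11c 0 of 17 were called (1.61% of all were higher and 2.27% lower), and in Fbxw11d 1 of 16 was called lower, Bcl11a (4.7% of all). Erg, an ETS factor related to Fli1, had scaled signals of 3.99 in the control, 126 in Fbxw11a, 3.37 in Fbxw11c and 2.07 in Fbxw11d, at least 6.99-fold higher in Fbxw11a than in the control. A second Erg probe that starts 143 bases away was not well above background in any line, with 2.91 in Fbxw11a, so the 2 probes disagree. Tal2, a paralogue of Tal1, had 9.44, 51.1, 29.8 and 3.39, at least 2.82-fold higher in Fbxw11a. Bcl11a, a zinc finger repressor of lymphoid cells, had 91.8, 86.3, 87.2 and 43.4, a log2 difference of -1.08 in Fbxw11d, while its other probes gave -0.45 and at least 0.44 there. Of the brightest of the list, Mybl2, Elf1 and Meis1 lay within 0.33 of the control in all lines. The list's median log2 differences were 0.00, 0.09 and 0.09 in Fbxw11a, Fbxw11c and Fbxw11d.

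Of 18 erythroid and megakaryocyte targets of Gata1 and Tal1, 10 were well above background in all 4 lines. In Fbxw11a 2 of the 11 compared were called higher, Hba-a1 and Itga2b (2.43% of all compared genes), and in Fbxw11c 1 of 10, Hba-a1 (1.61% of all). In Fbxw11d 1 of 10 was called higher, Hba-a1 (1.05% of all), and 1 lower, Vwf (4.7% of all). Hba-a1, an alpha globin, had scaled signals of 78.2 ± 8.83 in the control, 171 ± 17.5 in Fbxw11a, 165 ± 16.9 in Fbxw11c and 169 ± 17.0 in Fbxw11d. The control lay below the 3 lines with a variant, by 2.19-, 2.11- and 2.16-fold. The near-identical copy Hba-a2 gave 1.43-, 1.40- and 1.23-fold, and RNA of the 2 copies may reach either probe. Itga2b, the alpha chain of the platelet fibrinogen receptor, had 27.9, 103.8, 41.3 and 33.8, 3.72-fold higher in Fbxw11a. Vwf, the platelet adhesion protein, had 53.2, 43.4, 47.6 and 24.6. Among the brightest, the erythropoietin receptor Epor had log2 differences of -0.49, -0.16 and 0.34 and was not called. The list's median log2 differences were -0.13, -0.07 and 0.24. Hbb-b1, Alas2, Ahsp and Pf4, which are among the markers of erythroid cells and megakaryocytes, were not well above background in any line. Other such markers, Hba-a1, Epor, Itga2b and Vwf, were well above background in all 4 lines. Among 8 megakaryocyte markers, 5 were well above background in each line.

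Of 14 progenitor and mast cell targets of Gata2 and Runx1, 9 were well above background in all 4 lines, and 1 was called, Csf1r, the macrophage growth factor receptor, lower in Fbxw11d, of 12 compared there (4.7% of all). Its brightest probe had 1104, 1097, 1030.0 and 507 in the control, Fbxw11a, Fbxw11c and Fbxw11d, a log2 difference of -1.12 in the last, and a second probe gave -0.26. Kit and Ms4a2 were not well above background in any line, while Cd34, Fcer1g and Mcpt4 were well above background in all 4 lines. The brightest of the list was Csf3r, with log2 differences of -0.09, 0.07 and -0.38. The list's medians were -0.02, -0.10 and -0.11 on the log2 scale. Of 14 lymphoid targets of Myb and Ikzf1, 8 were well above background in all 4 lines. Myc and Bcl2 lay within 0.20 of the control on the log2 scale in all lines, Ccnb1, a cyclin, had differences of 0.22, 0.53 and 0.60, and the list's medians were 0.05, 0.14 and 0.07. The array of Fbxw11d lay on another slide than the other three, so slide and variant cannot be told apart for any difference of that line. On the scale used, 8 spike-in probes of RNA added to each sample lay -0.59 ± 0.09 (SD over probes) from the control on the log2 scale in Fbxw11d, beside 0.13 ± 0.06 in Fbxw11a and 0.15 ± 0.10 in Fbxw11c, and the part of this in the results was not tested. The called list genes were also recomputed under the other scalings, a step chosen after seeing the data. Centring the arrays on the median brought Bcl11a (-0.86), Rcor1 (-0.94), Vwf (-0.90) and Csf1r (-0.90) in Fbxw11d under the threshold. Quantile normalization and the authors' normalized values did so for Bcl11a, Rcor1 and Vwf. With normexp, of the list genes named above as called, Erg in Fbxw11a (1.17) and Csf1r in Fbxw11d (-1.11) still passed and the others did not.

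**Figure D4:**
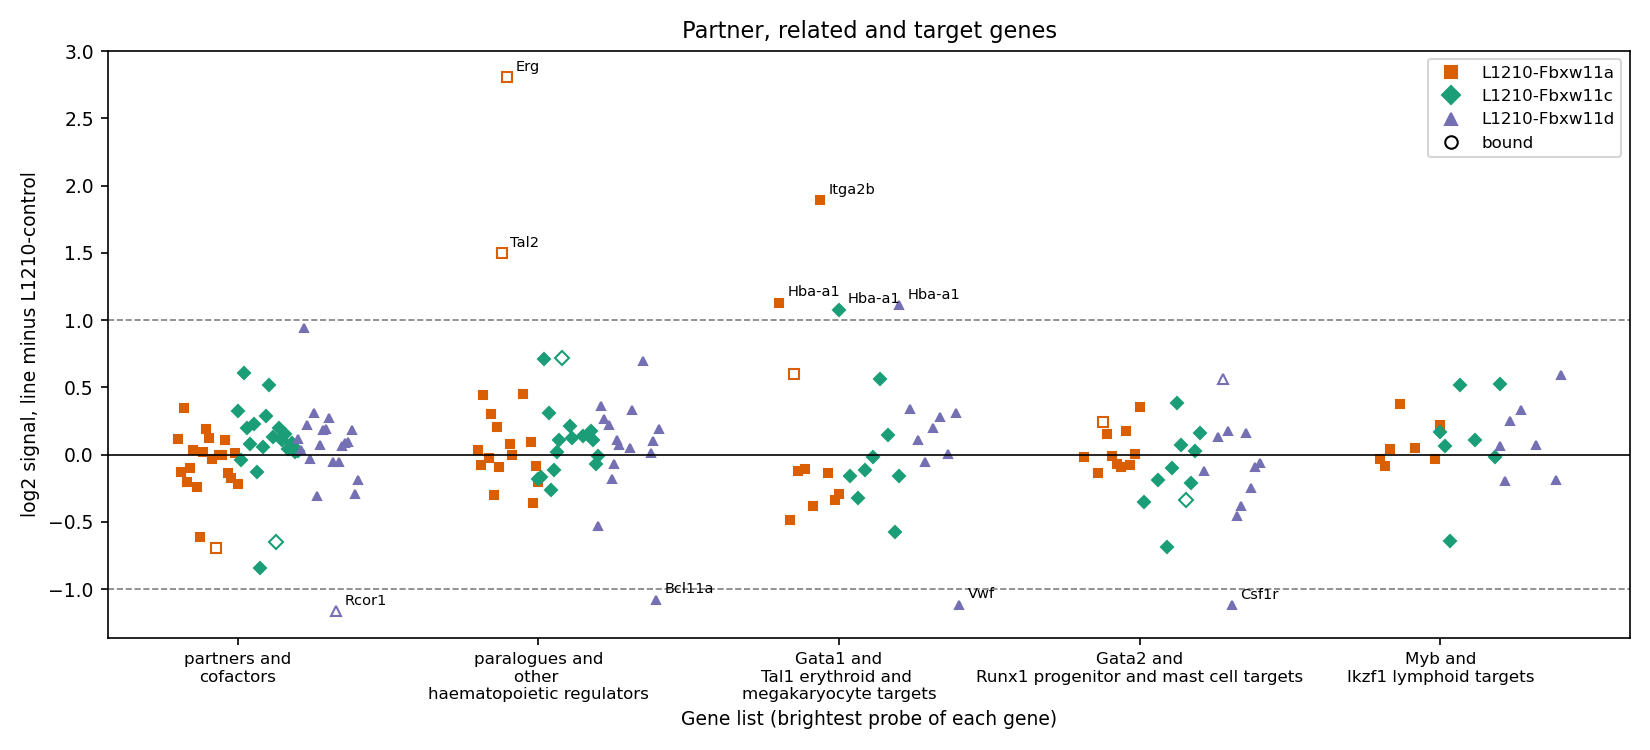
Log2 difference from the control of the brightest probe of each gene in 5 lists of partner, related and target genes, in Fbxw11a, Fbxw11c and Fbxw11d, with dashed lines at the 2-fold threshold and open points for bounds. Named points passed the threshold: 4 are higher in Fbxw11a, 1 in Fbxw11c and 1 in Fbxw11d, and 4 are lower in Fbxw11d. Genes whose results are not reported here are not drawn.

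Between 62.5% and 68.7% of probes per array were well above background. The 2 Fbxw11 probes, at 13153 and 9730 in the control, differed from it by at most 1.24-fold in the lines with a variant, and whether the vectors hold the bases of these probes is not given in the sources used here, so they do not check the labels. The cell type markers were mixed: Ptprc, the pan-leukocyte marker CD45, had a scaled signal of 42.9 in the control and 29.7 to 36.1 in the other lines, the B cell genes Ebf1, Ms4a1, Cd79b and Igll1 were not well above background in any line, and Cd3e, Cd4 and Fn1 were well above background in all 4. Cd3d, Cd3g and Thy1 were not well above background in any line, and Bcl11b was in Fbxw11d alone, so 6 or 7 of the 10 T lymphoid markers passed in each line. Of the B lymphoid list, 6 of 10 were well above background in each line, and of the erythroid list, 4 or 5 of 8. The macrophage list had 7 of the 9 on the array well above background in each line, and the megakaryocyte list 5 of 8. In the mast cell list it was 3 to 5 of 8, in the endothelial list 4 to 6 of 8 and in the pan-leukocyte list 4 or 5 of 6. Of the fibroblast list, 5 of 8 were well above background in the control and 6 or 7 in the other lines. Its Col1a2 had 888 in the control and 2419, 3819 and 3688 in Fbxw11a, Fbxw11c and Fbxw11d. In the same order, Col1a1 had 44.4, 45.6, 57.6 and 61.6. Col3a1 had 16.6, 29.1, 35.4 and 20.3, and was not well above background in the control. Pdgfra had 209.6, 206, 143 and 129, Dcn had 61.0, 49.8, 42.4 and 76.8, and Pdgfrb was not well above background in any line. The part of these genes in the results above was not tested.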

How the data were processed

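The expression of 4 L1210 lines was measured on 1 Agilent 1-colour SurePrint G3 mouse array each. The authors deposited the scanner output, with background-corrected signal intensity per spot and flags, and a table with the same intensity, normalized log2 values, detection flags, gene symbols and mm9 coordinates. The normalization of these log2 values is not given in the sources used here. The scanner headers name Feature Extraction 10.7.1.1, while the submitters' processing notes name Agilent Feature Extraction 9.1.

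Signals were put on the log2 scale and the 75th percentile of the gene spots was subtracted per array (620.2 in the control, then 627, 672 and 954 in the Fbxw11a, Fbxw11c and Fbxw11d lines). A probe's level was the mean of its spots without outliers. A gene with several probes was taken by its brightest. The spot SD is the median over the 50 repeated probes nearest in level, of 399. Precision is limited by the number of arrays (1 for each line), which allowed no test. All genes of the group were named with every probe, as were list genes called at 2-fold, the brightest up to 4 of a list, and the 3 genes most like Gata2. The group and the lists were chosen with earlier results of these data known. Calling was tested on simulated data. Alternatives were normexp (limma 3.58.1, offset 50), quantile normalization, median centring, the authors' deposited log2 values, other filters on dim probes, outlier spots kept, and thresholds of 1.5- and 3-fold. Python 3.11.15 and R 4.3.3 were used. Results of some list genes are not reported here.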

Additional observations from a re-analysis of the deposited data

Results flagged for a closer look

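In 2 probes the lines moved to opposite sides of the control by more than the SD between repeated spots, with 1 array per line, and the difference was not tested. Gata2 had a log2 difference of -0.45 in Fbxw11a and 0.20 in Fbxw11d. The second Runx1 probe had 0.095 in Fbxw11a and -0.19 in Fbxw11d. With normexp the Fbxw11d value of Gata2 was -0.02 and that of the second Runx1 probe 0.001, so neither probe then had lines on opposite sides by more than that SD. With the arrays centred on the median these values were 0.42 and 0.03.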

How the results depend on the processing

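No paired analysis was possible because each line has 1 array. With normexp, 0 member probes were called in Fbxw11a against the control, 0 in Fbxw11a against Fbxw11c and 1 in Fbxw11a against Fbxw11d. Quantile normalization, centring on the median and the authors' normalized values each left 1 call in Fbxw11a against Fbxw11d. Without a filter on dim probes, 2 were called in Fbxw11c and 2 in Fbxw11d against the control, 4 in Fbxw11a against Fbxw11d and 2 in Fbxw11c against Fbxw11d. With probes well above background on both arrays, 1 was called in Fbxw11a, 0 in Fbxw11c and 0 in Fbxw11d against the control, and 1 in Fbxw11a against each of the other variants. At 1.5-fold, 4 were called in Fbxw11a against Fbxw11d. At 3-fold, 1 was called in Fbxw11a against the control and 1 against each other variant. The other 35 of 54 counts stayed within 1.5 times. Of 175 recomputed log2 differences, 151 moved by less than the spot SD, and no called one changed sign. The tallies of counts and of log2 differences both take in the setting with outlier spots kept. That setting could not move a member value, because no spot of these probes was flagged as an outlier. With the mean of its 3 probes, of which 2 were not well above background in the control, the log2 difference of Mecom was -0.05 in Fbxw11a, where the call was lost, -1.13 in Fbxw11c and -1.76 in Fbxw11d. The causes were not tested. Signals near the lowest level well above background, as for Gata1 and Gfi1, limit these results.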
